A study of Mus musculus with 49 samples.

Results

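Lgr4, Lgr5, Axin2, Ascl2, Rnf43, Znrf3, Smoc2, Tnfrsf19, Sox9 and Olfm4 are genes that mark, or act in, the Wnt-dependent stem cells at the base of the intestinal crypt. They were taken by symbol from a mouse gene count table of 46078 identifiers, and all 10 had a row. Their levels were followed from freshly isolated hepatocytes through culture to organoids, 3-dimensional epithelial cultures grown in a gel, in 16 conditions and 49 libraries. Lgr5, Axin2 and Ascl2 were higher in every organoid library than in any other library, Lgr4, Znrf3 and Sox9 were read in all 49 libraries, and Smoc2 was near 0 in the spherical organoids of hepatocyte origin but not in the other organoids. Olfm4 was at 0 in 39 of the 49 libraries and was too low to be tested in any comparison.

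Wnt proteins bind Frizzled and Lrp receptors at the cell surface and stop the breakdown of beta-catenin, which then acts with TCF factors on target genes. R-spondins bind Lgr4 and Lgr5 and lift the brake that Rnf43 and Znrf3, ubiquitin ligases that remove Frizzled from the membrane, put on the signal. Axin2 is a scaffold of the complex that breaks down beta-catenin and is itself a Wnt target. Ascl2 is a transcription factor of crypt base stem cells and Sox9 one of crypt and bile duct epithelium. Smoc2 is a secreted matrix protein, Tnfrsf19 (Troy) a receptor of the tumour necrosis factor receptor family, and Olfm4 a secreted glycoprotein. In the liver, Wnt signals from endothelial cells around the central vein keep a pericentral program of hepatocytes.

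On the mouse genome build GRCm38, Lgr4 lay at chr2:109917647-110014257 (plus strand), Lgr5 at chr10:115450311-115587780 (minus), Axin2 at chr11:108920349-108950783 (plus), Ascl2 at chr7:142966829-142969264 (minus) and Rnf43 at chr11:87662722-87735539 (plus). Znrf3 lay at chr11:5276324-5444847 (minus), Smoc2 at chr17:14279506-14404790 (plus), Tnfrsf19 at chr14:60963875-61046490 (minus), Sox9 at chr11:112782224-112787760 (plus) and Olfm4 at chr14:79984081-80023139 (plus). All 10 were protein-coding. Rnf43 held a short non-coding gene on its own strand in an intron, 1110028F11Rik, with 540 counts of its own, so reads there could be split between both.

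Promoter sequence from RefSeq (GRCm38.p6) matched 6 of the 10 genes by symbol: Lgr4, Axin2, Ascl2, Rnf43, Tnfrsf19 and Olfm4. The 250 bases before the annotated start of Lgr4 (chr2:109917397-109917646, plus strand), Axin2 (chr11:108920099-108920348, plus) and Ascl2 (chr7:142969265-142969514, minus) are shown as examples of different levels outside organoids: Lgr4 was read in every library, while Axin2 and Ascl2 were at 0 in all libraries of 5 and 2 conditions. They are written 5′ to 3′ on the gene's strand, with no capitals because no searched motif lay in them.
Lgr4: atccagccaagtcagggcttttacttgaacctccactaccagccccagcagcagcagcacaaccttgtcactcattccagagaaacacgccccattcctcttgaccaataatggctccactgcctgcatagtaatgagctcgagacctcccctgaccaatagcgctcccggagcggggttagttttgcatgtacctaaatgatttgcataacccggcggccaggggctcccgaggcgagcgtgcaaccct
Axin2: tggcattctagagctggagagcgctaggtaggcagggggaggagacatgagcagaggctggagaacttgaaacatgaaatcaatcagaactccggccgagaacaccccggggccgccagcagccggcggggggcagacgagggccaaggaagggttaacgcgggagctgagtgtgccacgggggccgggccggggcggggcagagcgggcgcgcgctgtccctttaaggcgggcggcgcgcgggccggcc
Ascl2: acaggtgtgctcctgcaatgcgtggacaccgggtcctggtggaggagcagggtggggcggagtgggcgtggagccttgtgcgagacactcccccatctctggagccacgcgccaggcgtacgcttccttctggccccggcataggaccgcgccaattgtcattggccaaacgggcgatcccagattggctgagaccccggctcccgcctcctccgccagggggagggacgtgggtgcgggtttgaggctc
Their GC contents were 55.6%, 69.2% and 67.6%, and the median over 32851 promoters in the table was 52.4% (5th to 95th percentile 34.8% to 73.6%). Windows of 300 bases, 250 before and 50 after each start, were searched on both strands for 4 TCF motifs, CTTTG followed by AT, TT, AA or TA. The 8 windows of the 6 genes held 1 match, CTTTGAT on the opposite strand of the second Tnfrsf19 start, 202 bases before it (chr14:61038172-61038200, minus), shown with the motif in capitals.
Tnfrsf19: ctgaatgggggATCAAAGtgacaaactag
Of all 32851 windows, 16.9% held at least 1 of the 4 motifs and 3.73% held CTTTGAT. A match is a string of letters and was not tested for binding.

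All cells were from wild-type C57BL/6J mice. Freshly isolated hepatocytes (FHs, n = 3) came from the livers of 10-week-old males by collagenase perfusion, and were compared with hepatocytes in monolayer culture with EGF at 20 ng/mL for 3 h and for 1, 2, 4, 7 and 14 days (n = 3 each). A pair of cultures was kept for 7 days with verteporfin at 0.3 µM, an inhibitor of the Yap and Tead interaction, and a pair with its solvent DMSO (n = 2 each). DediHeps (n = 5) were hepatocytes that had dedifferentiated and were passaged as a monolayer in the same EGF medium, and dediHep aggregates (n = 3) were dediHeps in low-attachment plates. DediHep spherical organoids (dediHep-SOs, n = 3) were dediHeps in Matrigel with Wnt3a, the GSK3 inhibitor CHIR99021, EGF, Noggin and R-spondin1. DediHep budding organoids (dediHep-BOs, n = 3) also carried a retroviral Cdx2, an intestinal transcription factor, and were started in the medium of dediHep-SOs and moved, after passages, to EGF, Noggin and R-spondin1 alone. The gut references were spherical organoids of fetal intestinal progenitor cells from E13.5 embryos (FIPC-SOs, n = 3), in the medium of dediHep-SOs, and budding organoids of crypts of 10-week-old mice (ISC-BOs, n = 4), in EGF, Noggin and R-spondin1 from the start. CLiPs (n = 3) were hepatocytes turned to proliferating progenitors by Y-27632, A-83-01 and CHIR99021.

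Several features limit these groups. Spherical and budding organoids differed in medium, since Wnt3a and CHIR99021 were left out of the later culture of dediHep-BOs and of all culture of ISC-BOs, and dediHep-BOs differed from dediHep-SOs in the Cdx2 vector too, so that medium, vector and shape cannot be told apart. On the gut side FIPC-SOs came from E13.5 embryos and ISC-BOs from 10-week-old mice, so that donor stage, medium and shape cannot be told apart. Labels gave the same culture names to dediHep, aggregate and dediHep-SO libraries, and nothing stated that other replicates came from separate animals, so p-values measure the spread between these libraries. Each library was bulk RNA, in which a change in the share of cells that express a gene and a change in RNA per cell cannot be told apart.

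Libraries held 861047 to 3872936 counts of unique molecular identifiers (median 1976760), each read near the 3′ end of a transcript, so that counts are not per length and levels are compared between conditions, not between genes. Levels are counts scaled to the library total (counts per 10⁶, CPM), and 3 counts stood for 0.775 to 3.48 CPM depending on the library. Hepatocyte markers summed to 14755 to 16807 CPM in FHs and 16.9 to 41.3 CPM in dediHep-SOs, where Alb and Tat were at 0. All 7 endothelial, all 8 macrophage and blood cell and all 11 fibroblast and stellate markers had counts in FHs (sums of 132 to 199, 47.9 to 113 and 56.4 to 153 CPM), against at most 1.02, 2.11 and 3.06 CPM in dediHeps.

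A pair of libraries stood apart for these genes. FH replicate 1 was the highest FH library for 7 of the 8 members with a single highest library, all but Sox9, and dediHep-SO replicate 3 was the highest of its group for the same 7 of 10: Lgr4, Lgr5, Axin2, Rnf43, Znrf3, Smoc2 and Tnfrsf19. Both also had the highest share of counts in genes that span more than 50 kb, 18.67% against 16.73% and 16.93% in FHs and 21.26% against 19.53% and 19.78% in dediHep-SOs. The highest Lgr4 library of a condition had its highest long-gene share in 9 of 16 conditions, and the highest Znrf3 library in 10. Lgr5, Rnf43 and Sox9 matched in 6 of 16 each. Over conditions with a single highest library, Tnfrsf19 matched in 8 of 15, Axin2 in 5 of 11, Ascl2 in 4 of 14, Smoc2 in 4 of 7 and Olfm4 in 2 of 4. Conditions held 2 to 5 libraries, so a match can be chance, and no rate over all genes stands beside these counts. The part of the long-gene share in the levels was not tested. Values without this pair of libraries stand beside the results that rest on them.

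**Figure D1:**
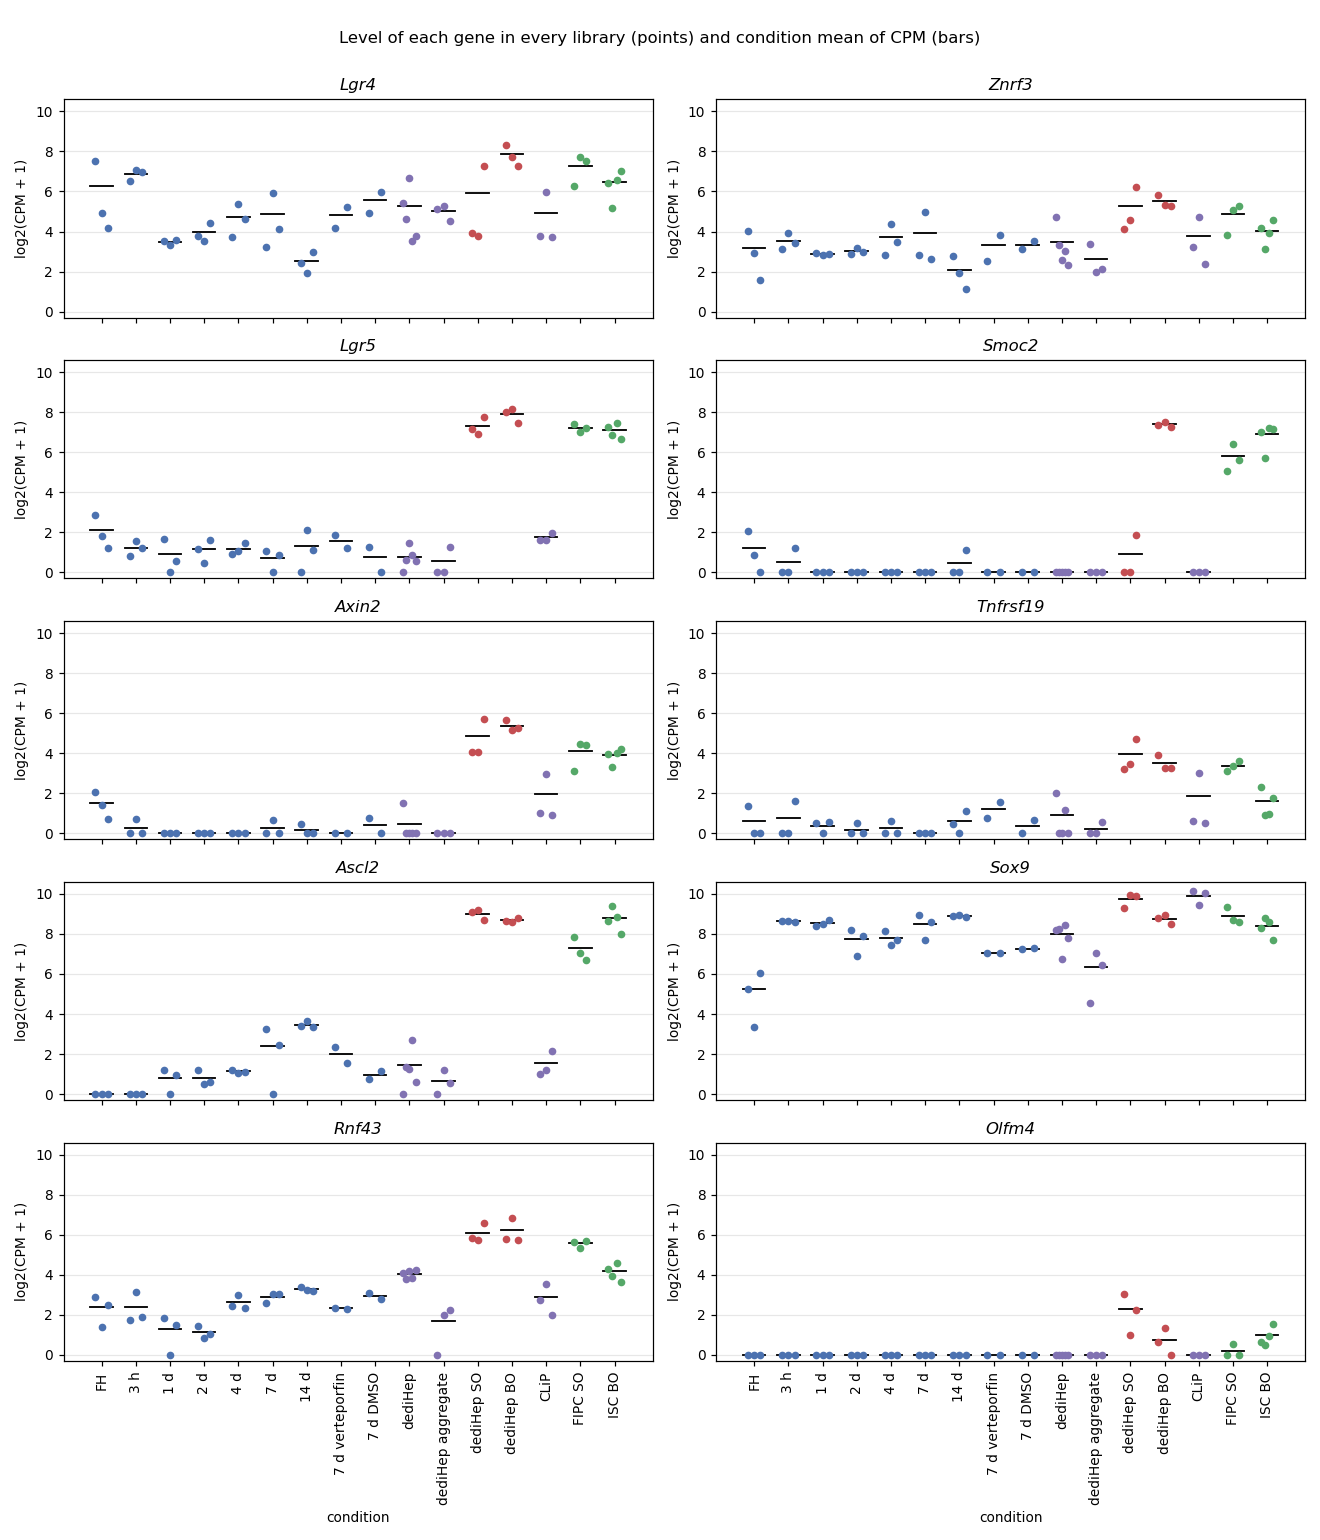
Level of each of the 10 genes as log2(CPM + 1) in the 16 conditions, 1 point per library and a bar at the condition mean, coloured by kind of sample (hepatocytes and their monolayers blue, dediHeps, aggregates and CLiPs purple, dediHep organoids red, gut organoids green). Lgr5, Axin2 and Ascl2 stand at 102 or more, 7.53 or more and 105 or more CPM in every organoid library, while Sox9 is at 9.08 CPM or more in all 49 libraries.

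Lgr5, a receptor for R-spondins and the classic marker of crypt base stem cells, was an organoid gene in these cultures. It stood at 140.2, 119.9 and 219 CPM in dediHep-SOs, at 255, 291 and 174 CPM in dediHep-BOs, at 167, 128 and 147 CPM in FIPC-SOs and at 154, 117, 176 and 102 CPM in ISC-BOs. FHs had 6.40, 2.48 and 1.31 CPM, dediHeps 0, 0.528, 1.76, 0.832 and 0.510 CPM, aggregates 0, 0 and 1.42 CPM and CLiPs 2.07, 2.07 and 2.99 CPM. Every organoid library was above every other library, and the 4 organoid groups overlapped one another, except that dediHep-BOs were above all FIPC-SO libraries. In the order of condition means, from dediHep-BOs (239.8 ± 59.9 CPM, SD, n = 3) to aggregates (0.473 ± 0.820 CPM, SD, n = 3), the only neighbours whose libraries did not overlap were ISC-BOs (137 ± 34.1 CPM, SD, n = 4) and FHs (3.40 ± 2.66 CPM, SD, n = 3).

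Lgr4, the more widely expressed R-spondin receptor, was read in all 49 libraries. It stood at 186, 29.7 and 17.1 CPM in FHs, 89.6, 134 and 123 CPM at 3 h, and 10.4, 9.05 and 11.1 CPM at 1 day. DediHeps had 42.3, 23.8, 102, 10.4 and 12.8 CPM, aggregates 34.5, 37.8 and 22.2 CPM and CLiPs 12.9, 62.5 and 12.4 CPM. Organoids had 14.0, 12.6 and 154 CPM (dediHep-SOs), 323, 212 and 154 CPM (dediHep-BOs), 76.6, 208 and 183 CPM (FIPC-SOs) and 85.9, 35.1, 94.4 and 131 CPM (ISC-BOs). FHs and dediHep-SOs were each spread widely by the library named above, and only 1 of 15 neighbours in the order of means did not overlap, 1 day (10.2 ± 1.05 CPM, SD, n = 3) and 14 days (4.71 ± 2.09 CPM, SD, n = 3).

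Axin2 was, like Lgr5, higher in every organoid library than in any other. It had 15.7, 15.7 and 51.6 CPM in dediHep-SOs, 50.1, 34.6 and 37.3 CPM in dediHep-BOs, 7.53, 20.9 and 20.6 CPM in FIPC-SOs and 14.8, 8.99, 15.3 and 17.2 CPM in ISC-BOs. FHs had 3.20, 1.65 and 0.656 CPM, CLiPs 1.03, 6.71 and 0.853 CPM, and 4 of 5 dediHep libraries, all aggregates and all libraries at 1, 2 and 4 days had 0. The lowest organoid library, at 7.53 CPM, was above the highest other library, at 6.71 CPM, a CLiP library. The other CLiP libraries lay within the FH range. CLiP medium held the Wnt pathway agonist CHIR99021, and its part in these levels was not tested.

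Rnf43, a brake on Wnt signalling and a Wnt target, was also read in monolayers. It had 6.40, 1.65 and 4.59 CPM in FHs, 15.9, 12.7, 17.6, 13.3 and 17.9 CPM in dediHeps and 0, 2.97 and 3.79 CPM in aggregates. DediHep-SOs had 56.3, 52.1 and 94.8 CPM, dediHep-BOs 54.4, 114 and 52.6 CPM, FIPC-SOs 49.6, 39.5 and 50.05 CPM and ISC-BOs 18.8, 14.5, 23.4 and 11.5 CPM. Here ISC-BOs overlapped dediHeps, and the other 3 organoid groups were above both. It had the most separate order of the 10 genes, with 5 of 15 neighbours that did not overlap.

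Znrf3, the paralog of Rnf43, was read in all 49 libraries and had the least separate order, with 0 of 15 neighbours apart. It had 15.2, 6.61 and 1.97 CPM in FHs and 25.1, 8.97, 4.91, 7.07 and 4.08 CPM in dediHeps. DediHep-SOs had 16.7, 22.8 and 72.7 CPM, dediHep-BOs 56.0, 39.6 and 37.8 CPM, FIPC-SOs 13.3, 32.4 and 37.9 CPM and ISC-BOs 17.1, 7.70, 14.3 and 23.0 CPM. DediHep-BOs were above all dediHep and FH libraries, and the other organoid groups overlapped dediHeps. The highest library for Znrf3 was also the highest for Lgr4 in 10 of the 16 conditions.

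Ascl2 went from 0 in all FH and 3 h libraries to a mean of 515 ± 91.7 CPM (SD, n = 3) in dediHep-SOs. The single libraries were at 541, 591 and 413 CPM in dediHep-SOs, 406, 382 and 449 CPM in dediHep-BOs, 232, 131 and 105 CPM in FIPC-SOs and 395, 676, 459 and 250.1 CPM in ISC-BOs. FIPC-SOs were below every library of the other organoid groups. In monolayer it had 8.38, 0 and 4.43 CPM at 7 days and 9.40, 11.4 and 9.29 CPM at 14 days, while dediHeps had 0, 1.58, 1.40, 5.41 and 0.510 CPM and CLiPs 1.03, 1.29 and 3.41 CPM. Thus the 14-day cultures were above all dediHep libraries, and all organoid libraries above both.

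Sox9 was read in every library and was the 1 member whose highest mean was outside organoids. FHs had 37.6, 9.08 and 66.3 CPM, the lowest mean of the 16 conditions, against 404, 403 and 386 CPM at 3 h, and CLiPs had 1124, 684 and 1057 CPM, the highest. DediHeps had 289, 303, 105, 350.0 and 219 CPM and aggregates 22.8, 132 and 86.1 CPM. Organoids had 619.6, 976 and 942 CPM (dediHep-SOs), 436, 496 and 358 CPM (dediHep-BOs), 654, 409.9 and 381 CPM (FIPC-SOs) and 316, 450.1, 391 and 203 CPM (ISC-BOs). All 3 h and later monolayer libraries were above all FH libraries, while aggregates overlapped FHs.

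Smoc2 separated dediHep-SOs from the other organoids. It had 0, 0 and 2.63 CPM in dediHep-SOs, 166, 183 and 155 CPM in dediHep-BOs, 32.3, 84.8 and 47.2 CPM in FIPC-SOs and 127, 51.8, 149.7 and 145 CPM in ISC-BOs. Outside organoids it was at 3.20, 0.826 and 0 CPM in FHs and at 0 in all libraries of 9 conditions, dediHeps, aggregates and CLiPs among them. The 5 counts in dediHep-SOs were all in replicate 3.

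Tnfrsf19 had 289 counts over all 49 libraries. It had 8.19, 10.1 and 25.3 CPM in dediHep-SOs, 14.0, 8.53 and 8.61 CPM in dediHep-BOs, 7.53, 9.33 and 11.3 CPM in FIPC-SOs and 3.98, 0.856, 0.953 and 2.40 CPM in ISC-BOs. ISC-BOs were below the other 3 organoid groups, which overlapped one another, and 1 CLiP library reached 6.97 CPM against 0.517 and 0.427 CPM in the others. Olfm4 had 43 counts in all, 30 of them in dediHep-SOs (7.16, 1.01 and 3.69 CPM), with 0.569, 0.428, 0.953 and 1.92 CPM in ISC-BOs and 0 in 12 conditions. Olfm4 is a known marker of crypt base stem cells, and in ISC-BOs it stood on 8 counts in all.

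Comparisons were fitted to the counts over all genes that passed a filter on low counts, with edgeR's quasi-likelihood test and Benjamini-Hochberg adjusted p (FDR). A gene is called, and said to rise or fall, where its log2 fold change passed 2 in size with the FDR below 0.1. Fold changes are given as log2 ± SE. Members that the filter removed were too low for the test, and a member that passed through its level in only 1 group had to differ.

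Within the culture time course, the members that moved were Sox9, Lgr4, Rnf43 and Ascl2, and 5 of the 10 were tested. At 3 h Sox9 rose by 3.48 ± 0.49 (FDR 9.19e-05) and was the 1 member called, where 3.06% of all 12443 genes rose. Lgr4 was at 0.73 at 3 h and not called, and at 2.33 (FDR 0.0130) without FH replicate 1. At 1 day 3 were called (17.4% of all genes, either direction). Sox9 rose by 2.64 ± 0.48 (FDR 0.000175), Lgr4 fell by 3.51 ± 0.72 on the log2 scale (FDR 0.000614) and Rnf43 fell by 2.10 ± 0.70 on the log2 scale (FDR 0.0241). Without FH replicate 1 the Lgr4 and Rnf43 values were -1.90 and -1.76, no longer called, and Rnf43 was also lost without the normalization factors (-1.45) and without the second 1-day library (-1.56).

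At 2 days Lgr4 and Rnf43 were called lower (12.1% of all genes fell), and at 4 days Lgr4 alone (12.4% fell). The Lgr4 values were -3.14 ± 0.70 (FDR 0.00112) and -2.45 ± 0.68 (FDR 0.00593), and became -1.53 and -0.84 without FH replicate 1. Rnf43 was at -2.54 ± 0.72 at 2 days (FDR 0.00752), and at -1.77 without the normalization factors. Under that setting Lgr4 was no longer called at 4 days (-1.60) or 7 days (-1.49), and Sox9 was called at 2 and 4 days (2.51 and 2.55). Sox9 passed the FDR alone at both times, at 1.73 and 1.69, and was called without FH replicate 3 (2.48 and 2.43) and, at 2 days, without the second 2-day library (2.04). At 7 days 3 members were called (25.9% of all genes, either direction), with Lgr4 at -2.31 ± 0.67 (FDR 0.00804), or -0.70 without FH replicate 1 and -1.88 and -1.94 without the first and the third 7-day library, and Sox9 at 2.40 ± 0.47 (FDR 0.000275), or 1.97 without FH replicate 2. At 14 days 3 were called again (29.5% of all genes), Lgr4 at -4.76 ± 0.81 (FDR 4.76e-05) and Sox9 at 2.96 ± 0.48 (FDR 2.88e-05). Ascl2, at 0 in FHs, was at least 6.43-fold higher at 7 days (FDR 0.0211) and at least 13.3-fold higher at 14 days (FDR 0.00251), against 3 counts over the FH group (3.91-fold and 8.99-fold with TMM factors). Without the first 7-day library the 7-day bound was 3.42-fold. Its 34 counts at 7 days came from only 2 of the 3 libraries. At 0 in FHs, Ascl2 passed the filter through the 14-day cultures, so its call there is no measure against the share of all genes. Znrf3 was at -1.78 at 14 days (FDR 0.0483), and was called lower without FH replicate 3 (-2.25) or the first 14-day library (-2.39).

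The third library of FHs and of each culture from 1 to 14 days, whose descriptions end in the same number, had the lowest sums of fibroblast and stellate markers (56.4 CPM in FHs, 3.70 to 76.7 CPM from 1 day) and of macrophage and blood cell markers (47.9 and 1.61 to 8.13 CPM). The other libraries from 1 day on had 30.7 to 339.7 CPM and 10.3 to 119 CPM. With that number as a block the counts of called members were again 1, 3, 2, 1, 3 and 3 from 3 h to 14 days, and the part of these cells in the levels was not tested.

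**Figure D2:**
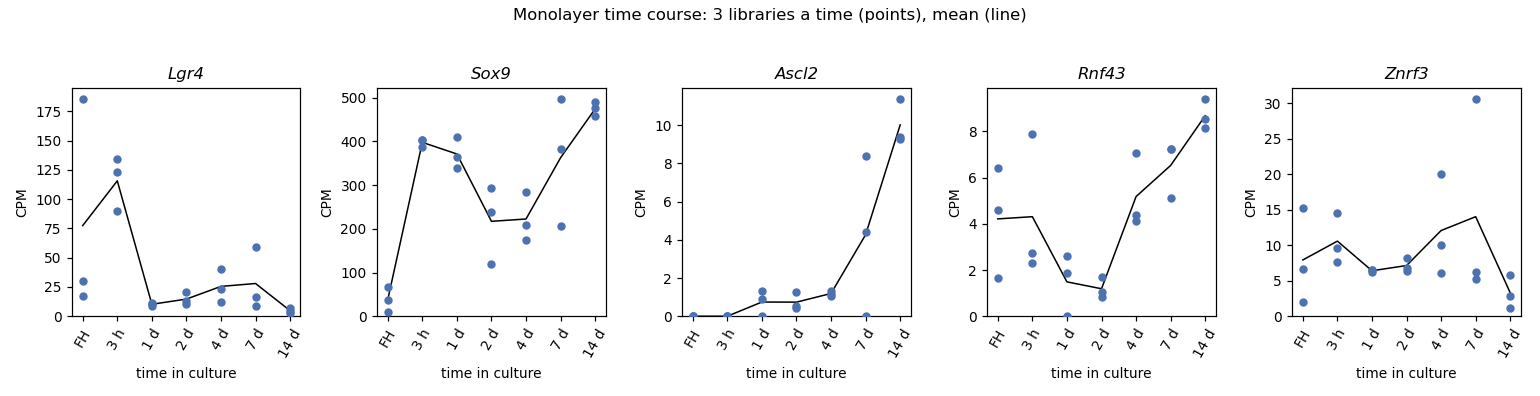
Levels of Lgr4, Sox9, Ascl2, Rnf43 and Znrf3 in CPM (linear axes that start at 0) in FHs and monolayer hepatocytes over time in culture, 1 point per library and a line through the means of 3. Sox9 is at 119 CPM or more from 3 h on against at most 66.3 CPM in FHs, Lgr4 ends at 2.84 to 6.97 CPM at 14 days, and Ascl2 goes from 0 at 3 h to 9.29 to 11.4 CPM at 14 days.

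Between established dediHeps and FHs, 0 of the 4 tested members were called, where 25.7% of all 11276 genes were, either direction. By edgeR 2 of the 4 had an unadjusted p under 0.05, as had 5190 of all 11276 genes, and DESeq2 called 0. Sox9 was higher by 1.89 ± 0.60 (FDR 0.0274) and Lgr4 lower by a value of -1.89 ± 0.82 (FDR 0.0925), both under the fold threshold. Sox9 was past it without FH replicate 3 (2.61) or dediHep replicate 3 (2.10), and Lgr4 was past it without FH replicate 2 or 3 or dediHep replicate 3 (-2.24, -2.35 and -2.60). Rnf43 did not overlap between the groups but had an FDR of 0.123 (0.99 ± 0.47). The marker sums of non-hepatocyte liver cells fell over the same comparison, as given above, and their part in these values was not tested.

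In aggregates, Rnf43 was lower than in dediHeps by a value of -2.45 ± 0.63 (FDR 0.0295). It was the 1 called of 4 tested members (5.11% of all 11265 genes fell), and stood at -1.99 without aggregate replicate 1. With at most 8 counts in an aggregate library, Rnf43 passed the filter through dediHeps, so its call is no measure against that share. Sox9 was at -1.46 ± 0.54 (FDR 0.0881). The labels gave culture names shared by both groups, and with the culture as a block Sox9 was called too, at -2.03 (FDR 0.0171). Proliferation markers summed to 78.6 to 177 CPM in aggregates and 599.9 to 2723 CPM in dediHeps, and their part was not tested.

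Between dediHeps and dediHep-SOs, Lgr5, Axin2, Ascl2, Rnf43 and Tnfrsf19 rose. These were 5 of the 8 tested members, and 4.12% of all 11470 genes did. Lgr5, Axin2, Ascl2 and Tnfrsf19 had at most 5, 3, 13 and 5 counts in a dediHep library. With a minimum count of 10 they passed the filter through dediHep-SOs and had to differ, so the number called is no measure against that share. Lgr5 was 7.54 ± 0.52 higher (FDR 1.27e-05), Ascl2 8.07 ± 0.66 (FDR 3.30e-05), Tnfrsf19 4.08 ± 0.94 (FDR 0.0174) and Rnf43 2.12 ± 0.31 (FDR 0.00125). Axin2 rested on 3 counts in dediHeps, all in 1 library, and had 175 in dediHep-SOs, a pooled ratio of 92.0-fold (95% counting interval 31.0 to 451) with an FDR of 0.00162.

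In the same comparison Znrf3 (1.87 ± 0.65, FDR 0.0948) and Sox9 (1.74 ± 0.37, FDR 0.0117) passed the FDR but not the fold, and Lgr4 neither (0.62 ± 0.88, FDR 0.700). Rnf43 was at 1.87 without dediHep-SO replicate 3 and no longer called, and Znrf3 was called without dediHep replicate 1 (2.54). With the culture name as a block Tnfrsf19 had an FDR of 0.102 and was no longer called. Smoc2 and Olfm4 were not tested, and against 3 counts over dediHeps Olfm4 was at least 15.8-fold higher in dediHep-SOs, or at least 8.31-fold without replicate 1. Smoc2 had its 5 counts in dediHep-SO replicate 3 alone, so that no difference was detectable without it. Paneth and secretory markers summed to 2.55 to 39.7 CPM in dediHeps and 1675 to 2266 CPM in dediHep-SOs, and their part was not tested.

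Against FHs, each organoid group had most of its tested members called higher. In dediHep-SOs these were 6 of 8 (14.5% of all genes rose), in dediHep-BOs 7 of 9 (14.2%), in FIPC-SOs 7 of 9 (15.4%) and in ISC-BOs 5 of 8 (14.8%). The 4 comparisons share the same FH libraries. Lgr5, Axin2, Ascl2, Rnf43, Smoc2 and Tnfrsf19 had at most 8, 4, 0, 8, 4 and 2 counts in an FH library. With a minimum count of 10 they were tested through their organoid level, so the numbers called are no measure against those shares. Lgr5 was higher by 4.68 ± 0.58, 5.34 ± 0.53, 4.49 ± 0.53 and 4.55 ± 0.52 in that order (FDR 7.28e-05, 2.03e-05, 4.93e-05 and 2.12e-05). Ascl2 was at least 691-fold, 549-fold, 205-fold and 603-fold higher than 3 counts over the FH group by library totals, and at least 430.0-fold, 332-fold, 114-fold and 390-fold with TMM factors, the scale of the fitted fold changes. Neither Lgr4 nor Znrf3 was called in any of the 4, with Lgr4 between -1.26 ± 1.02 and 0.79 ± 0.72, and without FH replicate 1 Lgr4 was called in dediHep-BOs (2.41) and Znrf3 in dediHep-SOs and dediHep-BOs (2.21 and 2.53). Without dediHep-SO replicate 3, Lgr4 was called lower in dediHep-SOs (-3.32). Without FH replicate 3, Axin2 was no longer called in FIPC-SOs (1.75, from 2.18) or ISC-BOs (1.71, from 2.15), and without FH replicate 2 Sox9 was not called in ISC-BOs (1.94, from 2.38).

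DediHep-SOs and FIPC-SOs were grown in the same medium from different tissues and donor stages, adult liver and fetal intestine. Smoc2 was the 1 member called lower in dediHep-SOs, at -5.93 ± 0.86 (FDR 0.00159), of 9 tested (3.99% of all 11608 genes fell). With at most 5 counts in a dediHep-SO library, Smoc2 passed the filter through FIPC-SOs and had to differ. Its call is thus no measure against that share. Without dediHep-SO replicate 3, which held all Smoc2 counts of the group, dediHep-SOs were at 0. Fibroblast and stellate markers summed to 612 CPM in FIPC-SO replicate 3, the highest of the 49 libraries, led by Col1a1 (237 CPM), against 14.6 and 7.55 CPM in the others and at most 1.71 CPM in dediHep-SOs. Smoc2 stood at 47.2 CPM in that library and at 32.3 and 84.8 CPM in the others, and its fold change without it was -6.06 (FDR 0.00570). Ascl2 (1.86 ± 0.37, FDR 0.00813) and Sox9 (0.94 ± 0.31, FDR 0.0693) passed the FDR alone. Ascl2 was called higher without dediHep-SO replicate 3 (2.04) and without FIPC-SO replicate 1 (2.32). Lgr4 was at -1.28 ± 0.82 (FDR 0.325) and not called. It was called lower without dediHep-SO replicate 3 (-3.34, FDR 0.000357) and with the replicate number as a block (-2.03, FDR 0.0163). Lgr5 (0.24 ± 0.30), Axin2 (0.88 ± 0.54), Rnf43 (0.67 ± 0.32), Znrf3 (0.54 ± 0.55) and Tnfrsf19 (0.74 ± 0.47) did not pass, at an FDR of 0.187 or more.

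From dediHep-SOs to dediHep-BOs, Smoc2 rose by 7.65 ± 0.73 (FDR 8.99e-05). It was the 1 called of 9 tested members (5.60% of all 11301 genes rose), on 996 counts against 5. With only those 5 counts in dediHep-SOs, Smoc2 passed the filter through dediHep-BOs and had to differ. Its call is thus no measure against that share. Lgr4 was higher by 1.96 ± 0.81 (FDR 0.0919), by 4.06 (FDR 7.54e-06) without dediHep-SO replicate 3, and by 2.91 (FDR 0.0612) with the replicate number as a block. Sox9 was lower, with -1.02 ± 0.25 (FDR 0.0145). The other 6 tested members had values between -0.49 and 0.56 and an FDR of 0.176 or more. Fibroblast and stellate markers summed to 321, 342 and 5.26 CPM in dediHep-BO replicates 1 to 3, led by Col3a1, Col1a2 and Lrat, with Des and Reln at 0, and to 1.05 to 1.71 CPM in dediHep-SOs. Smoc2 stood at 155 CPM in replicate 3, where that sum was 5.26 CPM, and at 166 and 183 CPM in the others. Enterocyte markers summed to 279 to 383 CPM in dediHep-SOs and 2356 to 3615 CPM in dediHep-BOs, and Paneth and secretory markers to 1675 to 2266 and 3851 to 6370 CPM. Their part in the Smoc2 difference was not tested.

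**Figure D3:**
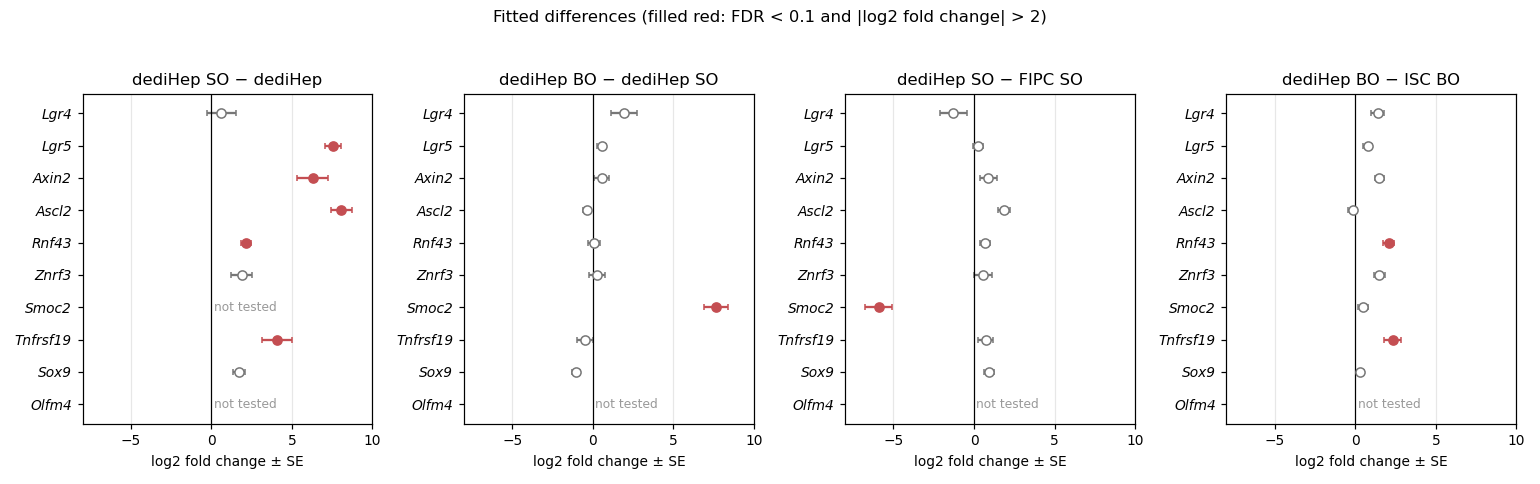
Log2 fold change of each tested member in 4 comparisons of organoids and dediHeps, with bars of 1 SE and filled red points for calls. Smoc2 is at 7.65 for dediHep-BOs against dediHep-SOs and at -5.93 for dediHep-SOs against FIPC-SOs, while Lgr5 and Axin2 lie within 1 log2 unit of 0 in both, and Lgr5 is at 7.54 for dediHep-SOs against dediHeps.

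Between the budding organoids, which ended in the same medium but began in different ones, Rnf43 and Tnfrsf19 were higher in dediHep-BOs than in ISC-BOs, 2 of 9 tested members where 1.34% of all 11303 genes were. Tnfrsf19 had at most 7 counts in an ISC-BO library and passed the filter through dediHep-BOs. Its call, and so the number called, is no measure against that share. Rnf43 was higher by 2.06 ± 0.35 (FDR 0.00664), but at 1.84 with the replicate number as a block, 1.62 without dediHep-BO replicate 2 and 1.91 without ISC-BO replicate 4, each under the fold threshold. Tnfrsf19 was higher by 2.32 ± 0.52 (FDR 0.0273), and had an FDR of 0.142 without dediHep-BO replicate 1 and 0.136 in a fit of all 49 libraries. Axin2 (1.49 ± 0.30, FDR 0.0143), Znrf3 (1.49 ± 0.35, FDR 0.0326) and Lgr4 (1.38 ± 0.39, FDR 0.0644) passed the FDR alone, with dediHep-BOs above every ISC-BO library for each. Lgr5 (0.77 ± 0.26), Ascl2 (-0.17 ± 0.29), Smoc2 (0.47 ± 0.32) and Sox9 (0.29 ± 0.27) did not pass.

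Between the gut references, ISC-BOs had less Tnfrsf19 than FIPC-SOs, at -2.07 ± 0.52 (FDR 0.0233), 1 called of 9 tested (2.62% of all 11644 genes fell). With at most 7 counts in an ISC-BO library, Tnfrsf19 passed the filter through FIPC-SOs, so its call is no measure against that share. This call was lost with the replicate block (FDR 0.121), in the fit of all 49 libraries (FDR 0.127) and without FIPC-SO replicate 3 (FDR 0.1002) or ISC-BO replicate 2 or 3 (-1.82 and -1.81). Ascl2 (1.66 ± 0.39, FDR 0.0178) and Smoc2 (1.25 ± 0.41, FDR 0.0786) were higher and Rnf43 (-1.30 ± 0.30, FDR 0.0140) lower by the FDR alone, and Ascl2 was called without FIPC-SO replicate 1 (2.13). The Smoc2 FDR was 0.325 with the replicate block and 0.241 without FIPC-SO replicate 3, the library with the highest fibroblast and stellate marker sum. Lgr5, at 0.03 ± 0.26, and Axin2, at -0.06 ± 0.39, had the smallest values.

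**Figure D4:**
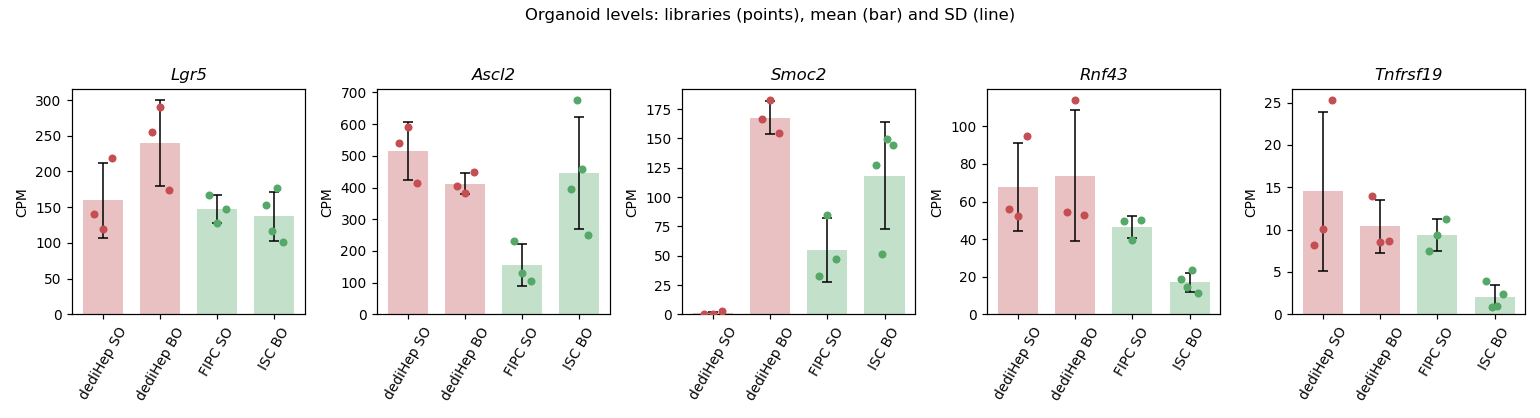
Levels of Lgr5, Ascl2, Smoc2, Rnf43 and Tnfrsf19 in CPM (linear axes that start at 0) in the 4 organoid groups, with a point per library, a bar at the mean and a line of 1 SD each way. Smoc2 is at 0 to 2.63 CPM in dediHep-SOs against 32.3 CPM or more in the other 3 groups, and Tnfrsf19 is lowest in ISC-BOs, at 0.856 to 3.98 CPM.

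The difference between budding and spherical organoids was itself compared between hepatocyte and gut origin, in 1 fit of the 4 groups with an FDR under 0.1 as the threshold. Of 9 tested members 3 passed, and 18.3% of all 12379 genes did, in either direction. For Smoc2 the difference was 6.36 ± 0.89 larger on the hepatocyte side (FDR 0.000553). For Ascl2 it was -2.05 ± 0.50 (FDR 0.0194), with dediHep-BOs at or below dediHep-SOs in mean (412 against 515 CPM) and ISC-BOs above FIPC-SOs (445 against 156 CPM). For Rnf43 it was 1.36 ± 0.48 (FDR 0.0825), and 1.24 with an FDR of 0.128 under the replicate block. Its FDR was also over the threshold, at 0.102 to 0.211, in 9 of 13 fits that left out 1 library (dediHep-SO replicate 1 or 2, dediHep-BO replicate 2, any FIPC-SO replicate, or ISC-BO replicate 1, 2 or 4), with values of 0.94 to 1.503. Lgr4 was at 2.62 ± 0.99 (FDR 0.101), and passed without dediHep-SO replicate 3 (4.68, FDR 0.000556), FIPC-SO replicate 1 (2.92, FDR 0.0673) or ISC-BO replicate 4 (2.90, FDR 0.0764). It also passed with all libraries under the replicate block (3.54, FDR 0.0497), DESeq2 (FDR 0.0485), RLE size factors (FDR 0.0974), no normalization factor (FDR 0.0880), corrected counts (FDR 0.0988) and no low-count filter (FDR 4.90e-07). Axin2, Znrf3 and Tnfrsf19 passed without dediHep-SO replicate 3 (1.31, 1.74 and 2.12), and Sox9 without FIPC-SO replicate 1 (-1.03). Only dediHep-BOs carried the Cdx2 vector, and only the gut side set adult against fetal donors. Origin, vector, donor stage, medium and shape thus cannot be told apart in these values.

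In CLiPs, Sox9 was 1.99 ± 0.41 higher than in dediHeps (FDR 0.0362), just under the fold threshold, and 0 of 4 tested members were called (3.04% of all 11567 genes were, either direction). By edgeR 2 of the 4 had an unadjusted p under 0.05, as had 1945 of all 11567 genes, and DESeq2 called 1, Sox9 at 2.01. It was past the threshold without CLiP replicate 2 (2.26) and without dediHep replicate 1, 2 or 4 (2.05, 2.07 and 2.14). Rnf43 was at -1.26 ± 0.43 (FDR 0.169), with the CLiP libraries all below the dediHep ones. Against FHs, Sox9 was 4.03 ± 0.74 higher (FDR 0.00364) and was the 1 called of 3 tested (13.1% of all genes rose). Lgr4 was at -2.11 there (FDR 0.127), and was called lower without FH replicate 3 (-2.60) or CLiP replicate 2 (-3.18). With verteporfin against DMSO, 0 of 3 tested members were called, and 0.269% of all 10400 genes were, by edgeR in either direction. Of the 3, 0 had an unadjusted p under 0.05 by edgeR, where 961 of all 10400 genes had, and DESeq2 called 0. Lgr4 was at -0.75 ± 0.45, Sox9 at -0.21 ± 0.24 (129 and 129.6 against 150.3 and 155 CPM) and Znrf3 at -0.01 ± 0.54.

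The other genes of the pathway were taken in lists by role. The list of ligand genes held the Wnts and R-spondins and also Porcn and Wls, which are not ligands. Where a gene had 3 counts or fewer over a group, its counts over both groups are given in place of a fold. Setting genes at 0 to their bound left each list median given here as it was. Listed genes at or near 0 in 1 group passed the filter through the other and had to differ. Where a list holds such genes, its number called and its median are no measure against all genes. In dediHep-SOs against dediHeps, 6 of 18 tested other crypt base and Wnt target genes rose and 0 fell (list median 1.17, all genes -0.05). The 3 with the smallest p were Ephb2 (526 counts against 3, FDR 3.30e-05) and Ephb3 (6.37 ± 0.71, FDR 0.000270), receptors that position crypt cells, and Hopx (383 counts against 0, FDR 0.00321), a homeodomain protein of crypt and alveolar cells. Of 6 ligand genes (list median -0.39) Wnt7b (4.69 ± 0.83, FDR 0.00415) and Wnt6 (4.81 ± 0.87, FDR 0.00480) rose, 1 of 8 receptors, Fzd8, fell (-2.47 ± 0.63, FDR 0.0280), and 1 of 16 signal transduction genes, Tcf7, rose (2.41 ± 0.74, FDR 0.0652).

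From dediHep-SOs to dediHep-BOs 5 of 7 tested ligand genes were lower and 1 higher (list median -4.61, all genes 0.00). Wnt7b (2 counts against 1623), Wnt10a (-6.34 ± 0.42) and Porcn (-3.19 ± 0.38), the acyltransferase that Wnt secretion needs, fell, and Wnt3, the ligand that Paneth cells make, rose (48 counts against 1, FDR 0.000775). Of 22 crypt genes 7 rose and 1 fell (list median 0.57), led by Clca3b (4.96 ± 0.44), Cdx1 (428 counts against 1), a homeobox partner of Cdx2, and Msi1 (159 counts against 0), an RNA-binding protein, with Prom1 lower (-2.16 ± 0.28). Nkd1, a feedback inhibitor, rose by 4.80 ± 0.59 and was 1 of 2 tested in its list, and it was also higher in dediHep-BOs than in ISC-BOs (3.62 ± 0.46, FDR 0.00126). Cdx2 stood at 0 in FHs, in all monolayer time points and in CLiPs, at 2.45 to 139 CPM in dediHeps, 70.8 to 119.6 CPM in dediHep-SOs, 191 to 395 CPM in dediHep-BOs, 346 to 463 CPM in FIPC-SOs and 323 to 388 CPM in ISC-BOs, and counts of the vector and of the gene were not separated here.

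Against FIPC-SOs, dediHep-SOs had 5 of 6 tested ligand genes higher (list median 6.07, all genes -0.03), with Wnt7b at 6.67 ± 0.43, Wnt6 at 5.48 ± 0.68 and Wnt10a at 571 counts against 2, and 2 of 22 crypt genes higher and 4 lower (list median 0.24). In dediHep-BOs against ISC-BOs 0 of 22 crypt genes were called (list median 0.60) and 1 of 3 ligand genes was, Wls, the carrier of Wnt proteins to the surface (2.198 ± 0.32, FDR 0.00275). In aggregates 4 of 12 crypt genes fell, with Ccnd1 at -3.27 ± 0.55, and Wnt10a (-4.29 ± 0.88) and Fzd2 (-3.21 ± 0.66) fell. In dediHeps against FHs all 4 tested ligand genes rose (list median 5.48, all genes 0.08). There 8 of 10 pericentral Wnt targets fell (list median -4.79), with Cyp2e1 at 1 count over dediHeps against 3652 over FHs, and 1421 of all 11276 genes fell. The paper reports several liver enzyme genes as lower in dediHeps. The part of such a loss of hepatocyte expression in the pericentral list was not tested. At 14 days, Notum, a secreted Wnt deacylase, had fallen to 0 counts from 64 in FHs (FDR 0.000710). With verteporfin Wnt7b (2.91 ± 0.44, FDR 0.0366) and Wnt4 (3.52 ± 0.58, FDR 0.04995) rose, 2 of 5 tested genes of the ligand list.

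The genes most like each member were found by Pearson's r of condition means on log2(CPM + 1), over 16 conditions and 14299 genes. The points share the contrast of 4 organoid with 12 other conditions. For Lgr5 they were Kcnq1 (r = 0.995), Tspan1 (0.988) and Ephb2 (0.988), and for Axin2 Lgr5 itself (0.970), Slc44a4 (0.969) and Tjp3 (0.965). Ascl2 was closest to 2010016I18Rik (0.977), Ephb3 (0.974) and Ephb2 (0.974), Smoc2 to Rgcc (0.989), Myb (0.988) and Chgb (0.988), and Tnfrsf19 to Rassf10 (0.971), Ccdc3 (0.954) and Gm42528 (0.947). Lgr4 was closest to Dcps (0.951), Rnf43 to Fam69b (0.943), Sox9 to Mbd2 (0.892) and Znrf3 to Gm42528 (0.878). These names depended on the pseudocount. With 4 in place of 1 the 3 for Axin2 were Mcf2l (0.981), Reg3b and Pof1b (0.979 each), and the closest gene also changed for Lgr5, Ascl2, Rnf43 and Tnfrsf19. With no filter on level Znrf3 was closest to Rps19-ps9 (0.933).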

How the data were processed

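CEL-seq2 libraries (3′ ends, unique molecular identifiers of 6 bases) were deposited by the authors as raw counts per Ensembl gene. The submitters' processing notes name GRCm38, bcl2fastq 2.20, Bowtie2 2.3.1 and HTSeq 0.6.0, and the annotation release is not given in the sources used here. Groups were taken from the labels. The 10 members and all gene lists were chosen with earlier results of these data known.

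CPM are counts scaled to the library total. Each pair of groups was fitted alone, the time course in 1 fit of 7 groups and the organoid difference in 1 fit of 4, with edgeR 4.0.16 in R 4.3.3: filterByExpr (minimum count 10, minimum total 15), TMM normalization, quasi-likelihood F-test and Benjamini-Hochberg adjustment. Calls needed a log2 fold change past 2 in size with the FDR below 0.1. Against a group at 0, folds are bounds on 3 counts over that group. Counting intervals and floors cover counting error only. Positions came from GENCODE M21, with which 45143 identifiers had a symbol, and promoters from RefSeq.

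Of other lists, up to 3 called genes per direction and comparison with the smallest p were named, and for members with a condition mean of at least 5 CPM the 3 genes with the highest r. Nkd1, Prom1, Wls and Notum were named by this rule, and the share of counts in long genes was chosen after the libraries were compared.

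Replicate libraries of a group differed beyond counting noise (chi-square per degree of freedom 5.62 to 68.0 over 54 pairs). Same-named cultures deviated together between dediHeps and aggregates (r = 0.169 to 0.323 over 3 pairs), and same-numbered verteporfin and DMSO libraries had r = 0.293. Alternatives were other size factors, no size factors, DESeq2 1.42.0, no low-count filter, counts corrected for identifiers drawn more than once (4 libraries reached the limit that 6 bases set, while the highest member count was 2650), a replicate block, each library left out and 1 fit of all 49 libraries. The test was checked on simulated counts.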

Additional observations from a re-analysis of the deposited data

Results flagged for a closer look

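Both single-library results lay in dediHep replicate 1. Its share of counts in genes that span more than 50 kb was 25.85%, the highest of the 49 libraries. The other dediHeps had 19.78% to 22.29%, and the part of this share was not tested. Axin2 was read only in dediHep replicate 1 of the 5, so that its gap to the others was the whole range of the group (a share of 1 of the range), and Znrf3 stood at 25.1 CPM there against 4.08 to 8.97 CPM in the others (0.767 of the range). Of 18 gene and group pairs with a spread, in the groups of 4 or 5 libraries, these 2 passed, and chance gives about 1 in 20. That rate does not apply to Axin2, whose gap was fixed by 3 counts in 1 library, and among 18 pairs a pass can be chance.

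The difference between budding and spherical organoids was not the same for hepatocyte and gut origin for 3 of the 9 tested members, by edgeR's test of the difference itself. It was 6.36 larger on the hepatocyte side for Smoc2 (FDR 0.000553) and 1.36 larger for Rnf43 (FDR 0.0825), and -2.05 for Ascl2 (FDR 0.0194). Medium, vector and shape changed together on the hepatocyte side, and medium, donor stage and shape on the gut side, and these cannot be told apart.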

How the results depend on the processing

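Over 21 counts of members, 326 values under an alternative stayed within 1.5 times of the value reported and 59 did not. Of 86 member fold changes that passed the FDR or were called under some setting, 1400 values kept their direction and side of the threshold, 60 came to be called, 40 were lost and 1 changed sign. As reported, 60 fold changes did not pass the FDR (12 of them, called under some setting, are among the 86), and 23 of the 60 changed sign under at least 1 setting, with an FDR of 0.122 or more at each such value.

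Without a normalization factor the median of all genes moved to 0.61 to 1.08 in comparisons with FHs (-0.15 at 3 h) and to -0.28 to 0.05 in the other pairs, and no called member changed direction. In dediHeps against FHs 0 members were called, 1 with no normalization factor or with corrected counts and 4 with no low-count filter or in the fit of all 49 libraries. In CLiPs against dediHeps 1 replaced 0 with RLE size factors, DESeq2, corrected counts and the fit of all 49 libraries, and in CLiPs against FHs DESeq2 called 2, no filter 3 and the fit of all 49 libraries 4. With no filter, and in the fit of all 49 libraries, the counts were 6 and 6 at 1 day, 4 and 5 at 2 days, 3 and 4 at 4 days (2 with no normalization factor), and 5 and 6 at 7 days. In both dediHep-BOs and FIPC-SOs against dediHep-SOs 2 replaced 1 with no filter and with corrected counts. The fit of all 49 libraries called 1 in dediHep-BOs against ISC-BOs and 0 in ISC-BOs against FIPC-SOs. The organoid difference had 5 with no filter. The cause of these moves was not tested, apart from the larger number of genes tested with no filter.

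With the replicate or culture as a block, 2 members were called in aggregates against dediHeps, in dediHep-BOs against dediHep-SOs and in dediHep-SOs against FIPC-SOs, 1 in dediHep-BOs against ISC-BOs and 0 in ISC-BOs against FIPC-SOs. Samples of the pairs other than aggregates and verteporfin share only a number or a name. Among libraries of FHs and the 1- to 14-day cultures whose descriptions end in the same number, r was over 0.1 in 4 of 15 pairs of an FH and a day and in 16 of 30 pairs between days (14 of 60 between days with other numbers). The bounds with TMM factors or without a library were chosen after seeing the data.

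Leaving out each library in turn gave 0 to 2 members in dediHeps against FHs, 0 to 1 in aggregates, 4 to 6 in dediHep-SOs against dediHeps, 1 to 2 in dediHep-BOs against dediHep-SOs, 1 to 3 in dediHep-SOs against FIPC-SOs, 1 to 2 in dediHep-BOs against ISC-BOs, 0 to 2 in ISC-BOs against FIPC-SOs and 0 to 1 in CLiPs against dediHeps. Against FHs it gave 1 to 2 in CLiPs, 1 to 2 at 3 h, 1 to 3 at 1 day, 1 to 3 at 2 days, 0 to 2 at 4 days, 2 to 3 at 7 days and 3 to 4 at 14 days, and 2 to 7 for the organoid difference. Lgr4 in dediHep-SOs against FHs, at -1.26, ran from -3.32 (without dediHep-SO replicate 3) to 0.40 (without FH replicate 1, FDR not passed), the 1 change of sign.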
